A study of Rattus norvegicus with 10 samples.

Results

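The AP-1 transcription factor subunits were followed here in the supraoptic nucleus (SON) of the rat, a hypothalamic nucleus whose large magnocellular neurones make vasopressin and oxytocin. The 10 genes are Fos, Fosb, Fosl1, Fosl2, Jun, Junb, Jund, Maff, Mafk and Atf3. They were taken by symbol from the authors' deposited table and joined by Ensembl identifier to the counts, which gave 10 of the 32402 genes listed. Each symbol had a single identifier, and all 10 passed the filter on low counts that 15311 genes passed.

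Polyadenylated RNA was sequenced from Wistar Han rats that either drank freely (euhydrated, 5 libraries) or had no drinking water for 72 h (dehydrated, 5 libraries), with cages assigned to the groups at random. Each SON sample was punched on both sides from 12 frozen coronal slices with a 1 mm corer. The labels used here give neither age nor sex. They also do not say whether each library came from its own rat, so the p-values cover only the variation among these libraries, some of which may be technical. Nor do they name the cage of a library, so an effect of shared cages cannot be separated from that of water deprivation. A punch of this kind also takes cells around the magnocellular neurones.

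AP-1 is a dimer of proteins with a basic leucine zipper, and it binds short DNA elements in promoters and enhancers. Fos proteins do not pair with each other and need another partner, commonly a Jun protein. Jun proteins pair with Fos proteins, with each other and with ATF proteins. Several of the genes are immediate early genes, which neurones transcribe within minutes of stimulation without new protein synthesis, and Fos is widely used as a marker of activated magnocellular neurones after osmotic stimulation. The small Maf proteins have the zipper but no activation domain of their own, and Atf3 is a stress-induced member of the ATF group.

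The 10 libraries held 24268398 to 28491926 counts in genes. Levels are CPM, counts scaled to the library total and by edgeR's TMM factors. This scale sets libraries side by side but not genes of different length, so levels were compared only between libraries. Fold changes are dehydrated over euhydrated, from edgeR's quasi-likelihood test with Benjamini-Hochberg adjustment over all 15311 genes and a threshold of 0.05. None of the 8 magnocellular markers was at 0, and Avp, for vasopressin, stood at 6153 and 8475 CPM in euhydrated and dehydrated libraries. Markers of other cells were present too, such as Mbp of oligodendrocytes at 6373 and 5626 CPM. These levels show that magnocellular transcripts were sampled, but they do not tell the labelled nucleus from other tissue with such neurones.

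Of the 10 subunits, 5 rose (Fos, Fosl1, Fosl2, Jund and Maff), 0 fell and 5 did not pass the threshold. Among all genes tested, 12.7% were called in either direction, 7.79% higher and 4.9% lower. Scaled to library totals without TMM factors, 904 genes were called higher and 1173 lower in place of 1192 and 750, with the same 5 subunits called. The same 5 subunits were the ones whose groups did not overlap, with all dehydrated values on top. That was so for 6.9% of all genes tested, and 10.9% had no overlap in either direction. The median log2 fold change was 0.34 over the 10 subunits and -0.0058 over all genes. In bulk RNA of this kind, a change in the number of cells of a type and a change in RNA per cell cannot be told apart.

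**Figure D1:**
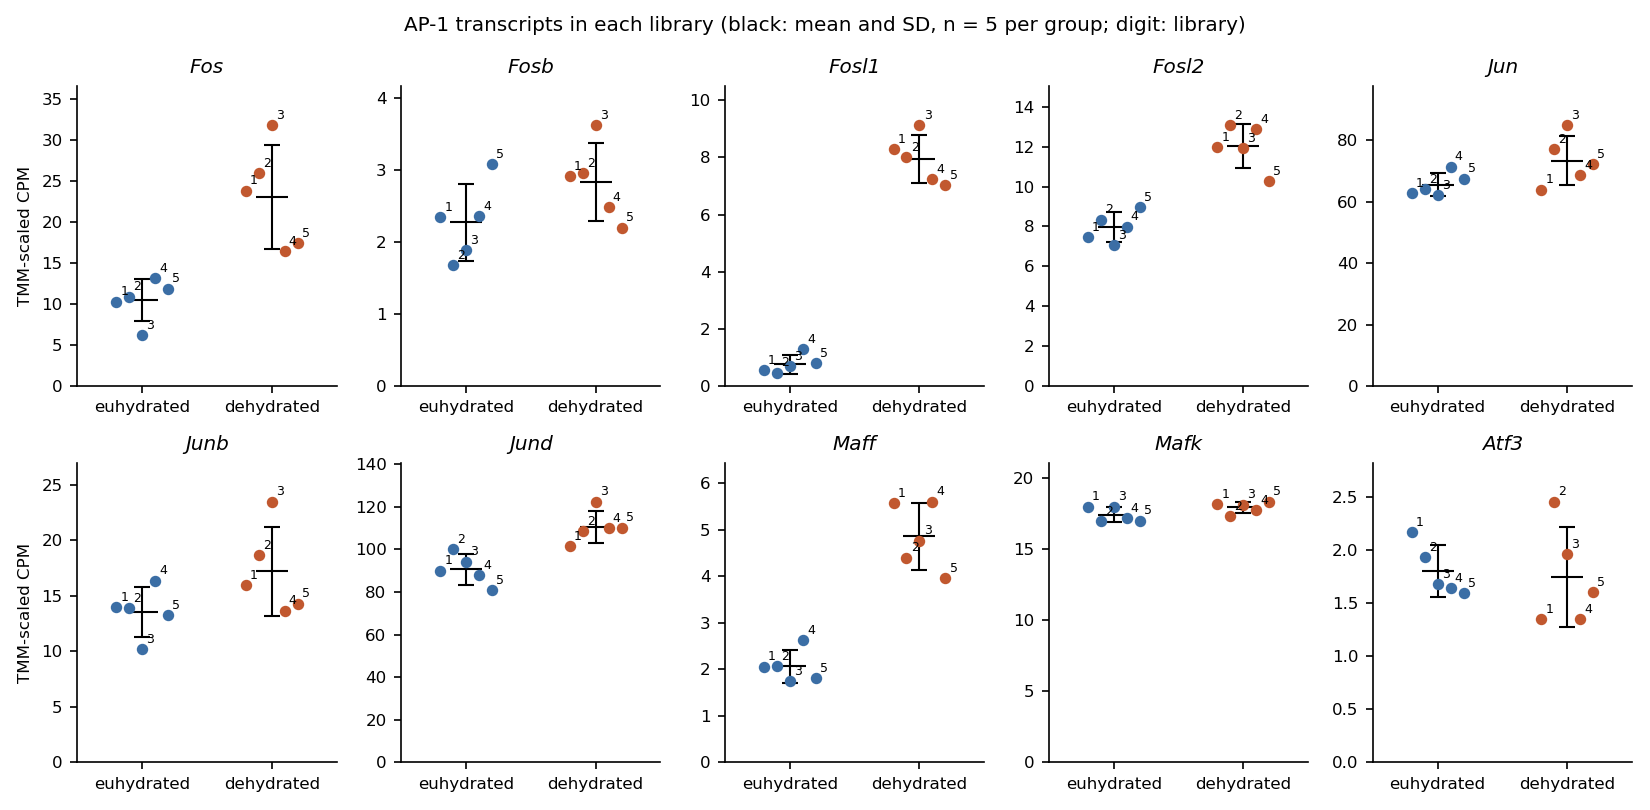
TMM-scaled CPM (y axis, from 0) of each of the 10 AP-1 subunits in the 5 euhydrated (blue) and 5 dehydrated (orange) libraries, with 1 numbered point per library and black bars for the mean and SD. The groups stand apart for Fos, Fosl1, Fosl2, Jund and Maff and overlap for the other 5 genes.

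Fosl1 (ENSRNOG00000020552), which encodes FRA-1, a Fos protein without the strong activation domain of FOS, was low in all 5 euhydrated libraries. It stood at 0.542, 0.465, 0.697, 1.29 and 0.797 CPM in euhydrated libraries 1 to 5, from 13 to 34 counts each. It stood at 8.30, 8.02, 9.13, 7.25 and 7.04 CPM in dehydrated libraries 1 to 5, from 172 to 247 counts. The lowest dehydrated library lay far above the highest euhydrated one. The mean went from 0.759 ± 0.326 to 7.95 ± 0.842 CPM (SD, n = 5 per group), a 10.5-fold rise with a log2 fold change of 3.39 ± 0.19 (SE; 95% interval 2.99 to 3.79; edgeR adjusted p = 4.51e-08). The rise passed the threshold in all 21 alternative analyses.

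Fos (ENSRNOG00000008015), the classical immediate early subunit, had the largest coefficient of variation of the 4 Fos genes in dehydrated libraries, at 27.5%. It stood at 10.3, 10.9, 6.24, 13.2 and 11.9 CPM in euhydrated libraries 1 to 5. The dehydrated libraries 1 to 5 had 23.8, 26.0, 31.9, 16.4 and 17.4 CPM. All 5 dehydrated values were above all 5 euhydrated ones, though dehydrated libraries 4 and 5 were close to the top of the euhydrated range. The means were 10.5 ± 2.61 and 23.1 ± 6.37 CPM (SD, n = 5 per group), a 2.21-fold rise with a log2 fold change of 1.14 ± 0.24 (SE; 95% interval 0.60 to 1.69; edgeR adjusted p = 0.0151). With each library left out in turn the edgeR adjusted p ran from 0.0129 to 0.0409. The call was lost in 1 of the 21 alternatives, a block by column number that is described at the end.

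Fosl2 (ENSRNOG00000052357) encodes FRA-2, the other FOS-related antigen. Its euhydrated libraries 1 to 5 had 7.44, 8.34, 7.04, 7.99 and 8.98 CPM, and its dehydrated libraries had 12.0, 13.1, 11.9, 12.9 and 10.3 CPM. The values were tightly grouped on both sides and did not overlap. The means were 7.96 ± 0.758 and 12.0 ± 1.11 CPM (SD, n = 5 per group), which is a 1.51-fold rise (log2 fold change 0.60 ± 0.086, SE; edgeR adjusted p = 0.000269).

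Fosb (ENSRNOG00000046667) makes a full-length and a truncated, long-lived protein from 1 gene, and counts per gene do not separate them. It stood at 2.35, 1.68, 1.88, 2.36 and 3.08 CPM in euhydrated and 2.91, 2.96, 3.62, 2.49 and 2.20 CPM in dehydrated libraries 1 to 5. Euhydrated library 5 was above 4 of the 5 dehydrated libraries. The log2 fold change was 0.32 ± 0.18 (SE; 95% interval -0.051 to 0.70; edgeR adjusted p = 0.260), an interval that holds no change and also a rise of the size seen for Fosl2.

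Because a single size scale does not show how the make-up of the group moved, the 4 Fos genes were also summed in each library, from counts that are not corrected for length. Their sum went from 21.5 ± 3.67 to 45.9 ± 8.04 CPM (SD, n = 5 per group), a ratio of 2.14. The share of those counts taken by Fosl1 was 2.17% to 5.21% in euhydrated libraries and 16.0% to 19.0% in dehydrated ones, with means of 3.53% and 17.5%. The share of Fos itself hardly differed, at 48.3% ± 5.31 and 49.6% ± 5.35 (SD, n = 5 per group). Fosl2 went from 37.6% to 26.7% and Fosb from 10.6% to 6.16%, although neither gene's own level was lower. These shares are a description and were not tested.

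**Figure D2:**
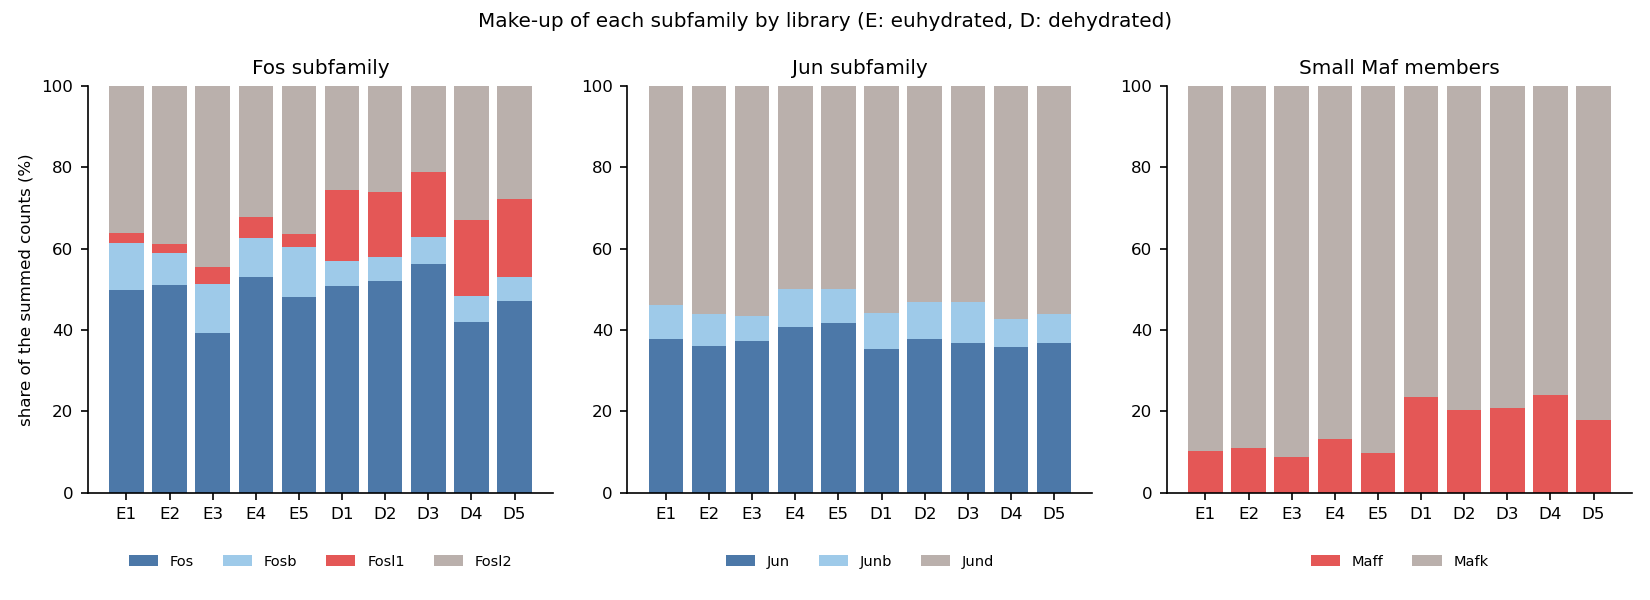
Share of summed counts taken by each gene (percent, y axis from 0 to 100), with 1 stacked bar per library, euhydrated 1 to 5 then dehydrated 1 to 5. The sums are of the Fos genes, of the Jun genes, and of the small Maf genes Maff and Mafk alone, without Mafg. Fosl1 is a thin band of 2.17% to 5.21% in the euhydrated bars and a band of 16.0% to 19.0% in the dehydrated ones, while the share of Junb runs from 6.12% to 9.32% in the euhydrated and from 7.10% to 10.2% in the dehydrated bars.

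Of the 3 Jun genes, which supply common partners of the Fos proteins, Jund alone passed the threshold. Jund (ENSRNOG00000019568), the Jun gene that is commonly expressed at a steady level, stood at 90.0, 99.9, 94.3, 87.7 and 80.7 CPM in euhydrated libraries 1 to 5. In dehydrated libraries 1 to 5 it stood at 101.4, 108.4, 122.4, 110.0 and 110.1 CPM. The highest euhydrated and lowest dehydrated values nearly touched. The means were 90.5 ± 7.19 and 110.5 ± 7.57 CPM (SD, n = 5 per group), which is a 1.22-fold rise (log2 fold change 0.29 ± 0.057, SE; edgeR adjusted p = 0.00471). When the erythrocyte marker level described further on was added to the model, its log2 fold change was 0.23 ± 0.07 (SE) and no longer passed (edgeR adjusted p = 0.107).

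Jun (ENSRNOG00000026293), the founding member, stood at 62.8, 64.2, 62.1, 71.4 and 67.5 CPM in euhydrated and 63.9, 77.1, 84.9, 68.7 and 72.3 CPM in dehydrated libraries 1 to 5. Dehydrated libraries 1 and 4 sat among the euhydrated values. The log2 fold change was 0.16 ± 0.068 (SE; 95% interval 0.017 to 0.31; edgeR adjusted p = 0.142), and without dehydrated library 1 it was 0.21 (edgeR adjusted p = 0.0398). Without dehydrated library 3 it was 0.10 (edgeR adjusted p = 0.281). Jun passed the threshold in only 1 of the 21 alternatives.

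Junb (ENSRNOG00000042838), an immediate early Jun gene, stood at 14.0, 13.9, 10.2, 16.4 and 13.3 CPM in euhydrated and 16.0, 18.6, 23.5, 13.7 and 14.3 CPM in dehydrated libraries 1 to 5. Dehydrated libraries 1, 4 and 5 were inside the euhydrated range and library 3 was well above it. Its log2 fold change was 0.35 ± 0.16 (SE; 95% interval -0.012 to 0.71; edgeR adjusted p = 0.206). The sum of the 3 Jun genes was 169.6 ± 6.86 and 201.1 ± 18.6 CPM (SD, n = 5 per group), a ratio of 1.19 against 2.14 for the Fos genes, and no share of a Jun gene in that sum moved by more than 2.23 percentage points.

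The small Maf genes differed in what they did. Maff (ENSRNOG00000012886), an inducible small Maf, stood at 2.06, 2.08, 1.74, 2.63 and 1.81 CPM in euhydrated libraries 1 to 5. The dehydrated libraries had 5.57, 4.40, 4.77, 5.61 and 3.96 CPM. Every dehydrated library was clearly above every euhydrated one. The means were 2.06 ± 0.347 and 4.86 ± 0.723 CPM (SD, n = 5 per group), which is a 2.36-fold rise (log2 fold change 1.24 ± 0.14, SE; edgeR adjusted p = 3.01e-05).

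Mafk (ENSRNOG00000001277), a broadly expressed small Maf, stood between 16.9 and 18.0 CPM in euhydrated and between 17.3 and 18.3 CPM in dehydrated libraries. It was the steadiest of the 10 genes, with a coefficient of variation of 2.99% and 2.32%. Its log2 fold change was 0.042 ± 0.049 (SE; 95% interval -0.062 to 0.15; edgeR adjusted p = 0.648), an interval that leaves out a rise of the size of Maff. Mafg, the third small Maf, was named after its values were seen. It stood at 33.3 and 36.8 CPM (edgeR adjusted p = 0.0858).

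Atf3 (ENSRNOG00000003745), which is induced by many kinds of cell stress and injury, was not higher after water deprivation. It stood at 2.17, 1.93, 1.67, 1.64 and 1.59 CPM in euhydrated and 1.35, 2.45, 1.96, 1.35 and 1.60 CPM in dehydrated libraries 1 to 5, so the groups overlapped throughout. The log2 fold change was -0.047 ± 0.19 (SE; 95% interval -0.44 to 0.35; edgeR adjusted p = 0.910). The interval leaves out a rise of the size of Fosl2, while smaller changes in either direction were not detectable at 32 to 63 counts per library.

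**Figure D3:**
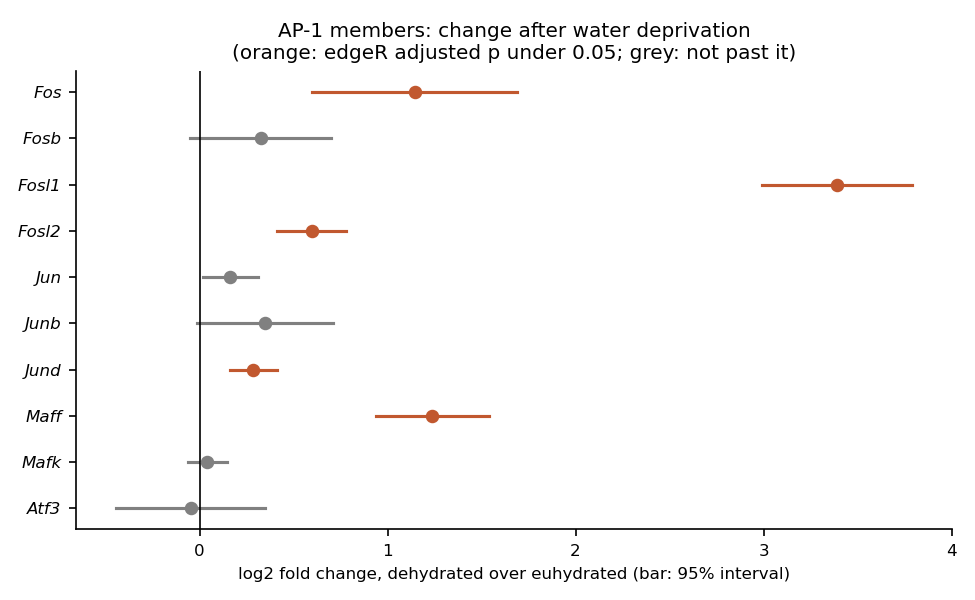
Log2 fold change (dehydrated over euhydrated, x axis) of the 10 AP-1 subunits with its 95% interval from edgeR, orange where the adjusted p passed 0.05 and grey where it did not. Fosl1 lies at 3.39, Maff at 1.24, Fos at 1.14, Fosl2 at 0.60 and Jund at 0.29, and of the 5 grey intervals only that of Jun lies wholly above 0.

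The 3 subunits that rose more than 2-fold, Fosl1, Maff and Fos, were among 75 genes that did so past the threshold, which is 0.49% of all genes tested. Fosl1 ranked 1, Maff 51 and Fos 59 by fold among the 1192 genes that rose. The median fold of those genes was 1.19, close to the 1.22-fold of Jund. In the authors' deposited table, from DESeq2, the log2 fold changes were 3.40 for Fosl1, 1.24 for Maff, 1.14 for Fos, 0.60 for Fosl2 and 0.29 for Jund, and the adjusted p of Fos was 0.000118. That table passed the same 5 subunits at 0.05 and left Jun at 0.105 and Junb at 0.0876.

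The promoters of 3 subunits that rose are shown because they hold letters of the cyclic AMP response element (CRE), the element through which CREB, CREM and ATF proteins act. The windows run from 250 bases before to 50 bases after the RefSeq start in build GRCr8, and 7 of the 10 subunits had one (Fosb, Fosl1, Fosl2, Maff, Mafk, Jund and Junb), while Fos, Jun and Atf3 are named only. The sequences are printed 5′ to 3′ on the strand of the gene, and capitals mark each CRE (TGACGTCA) or CRE half-site (TGACG or its reverse complement CGTCA). Fosl1 is at chr1:212183635-212183934 on the plus strand, Maff at chr7:112792537-112792836 on the plus strand, and Jund at chr16:18769722-18770021 on the minus strand.
Fosl1: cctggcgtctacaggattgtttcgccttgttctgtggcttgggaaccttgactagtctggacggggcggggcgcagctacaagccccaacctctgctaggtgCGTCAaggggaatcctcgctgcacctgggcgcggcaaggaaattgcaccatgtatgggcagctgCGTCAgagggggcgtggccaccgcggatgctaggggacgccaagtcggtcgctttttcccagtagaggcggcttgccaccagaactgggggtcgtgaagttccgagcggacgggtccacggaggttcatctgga
Maff: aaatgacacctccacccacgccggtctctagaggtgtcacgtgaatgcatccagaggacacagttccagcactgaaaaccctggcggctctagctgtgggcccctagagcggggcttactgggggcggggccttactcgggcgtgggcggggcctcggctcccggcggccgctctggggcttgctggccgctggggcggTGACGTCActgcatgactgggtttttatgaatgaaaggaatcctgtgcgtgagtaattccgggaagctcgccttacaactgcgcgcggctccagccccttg
Jund: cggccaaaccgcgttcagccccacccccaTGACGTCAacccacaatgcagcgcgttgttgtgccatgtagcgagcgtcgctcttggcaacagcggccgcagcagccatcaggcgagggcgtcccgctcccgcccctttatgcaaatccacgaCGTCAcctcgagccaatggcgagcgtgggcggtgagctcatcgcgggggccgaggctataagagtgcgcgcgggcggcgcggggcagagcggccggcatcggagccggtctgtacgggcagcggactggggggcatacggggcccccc
A full CRE begins 51 bases before the start of Maff and 221 bases before that of Jund. Fosl1 holds 2 half-sites, which begin 148 and 84 bases before its start, and Jund holds a further half-site 98 bases before its start. Of the other windows, Mafk has a half-site that begins 69 bases before the start and Junb has 1 that begins 155 bases before it, and Fosb and Fosl2 have none. Every full CRE also counts as a half-site here, since the letters overlap.

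For scale, 1.83% of all 33469 RefSeq windows of this length held a full CRE on either strand and 21.2% held a half-site, so a half-site is a common string. Among windows of genes tested the shares were 2.83% and 29.1%. A full CRE was in 4.66% of windows of genes that rose and in 1.70% of those of genes that fell. For a half-site these shares were 34.9% and 25.6%. An AP-1 element (TGACTCA or its reverse complement TGAGTCA) was in none of the 7 subunit windows and in 4.63% of all windows. It was in 59 of the 1029 windows of genes that rose (5.73%), in 9 of the 648 of genes that fell (1.39%) and in 3.46% of windows of genes tested. A CArG box, the serum response factor site, was in none of the 7 and in 1.64% of all windows. Its shares among windows of genes that rose and fell were 1.07% and 0.926%. Some genes have several windows, no test of these shares was made, and a match is a string of letters, not a measured binding site.

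Within the groups, several subunits were highest or lowest in the same library. Dehydrated library 3 was the highest dehydrated library for 6 of the 10 (Fos, Fosb, Fosl1, Jun, Junb and Jund). Euhydrated library 4 was the highest euhydrated library for 5 (Fos, Fosl1, Jun, Junb and Maff), and euhydrated library 3 was the lowest for 5 (Fos, Fosl2, Jun, Junb and Maff). Dehydrated library 5 was the lowest for Fosb, Fosl1, Fosl2 and Maff. Likeness was measured as Pearson's r of log2 CPM after each group's mean was removed, over the 10 libraries, which share library depth and dissection. Among pairs of subunits it was 0.94 for Fos and Junb, 0.77 for Jun and Junb and 0.68 for Fos and Fosb. For Fos and Fosl1 it was 0.41. Other pairs were negative, with -0.87 for Fosl2 and Mafk, -0.44 for Fos and Mafk, -0.40 for Fosb and Jund and -0.35 for Fosl1 and Jund. These values are a description and were not tested.

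Of all genes with a symbol and a mean of at least 1 CPM, the 3 most like Fos were Junb (0.94), Egr1 (0.92), another immediate early transcription factor, and LOC100134871, a beta globin gene of red blood cells (0.91). Egr1 stood at 50.1, 41.1, 21.4, 66.4 and 49.9 CPM in euhydrated and 62.1, 62.9, 84.7, 53.3 and 41.5 CPM in dehydrated libraries 1 to 5. It shared with Fos its low euhydrated library 3, its high euhydrated library 4 and its high dehydrated library 3, but its groups overlapped (log2 fold change 0.42 ± 0.30, SE; edgeR adjusted p = 0.433). The globin gene ran from 10.1 CPM in euhydrated library 3 to 100.4 CPM in euhydrated library 4 (log2 fold change -0.67 ± 0.63, SE; edgeR adjusted p = 0.565). The genes most like Fosl1 were Tmem128 (0.93), Cebpz (0.92) and Impdh1 (0.91), and those most like Maff were LOC680200 (0.93), RGD1561149 (0.91) and Rgs19 (0.91). By Spearman's rank correlation the 3 genes, in the order named, stood at 0.88, 0.84 and 0.77 for Fos. They stood at 0.66, 0.73 and 0.92 for Fosl1 and at 0.88, 0.93 and 0.79 for Maff. All these genes were picked as the highest of a search over all such genes with 10 libraries. Mafk, which did not pass the threshold, reached a Pearson's r of 0.95 with Tm9sf1 in that search.

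**Figure D4:**
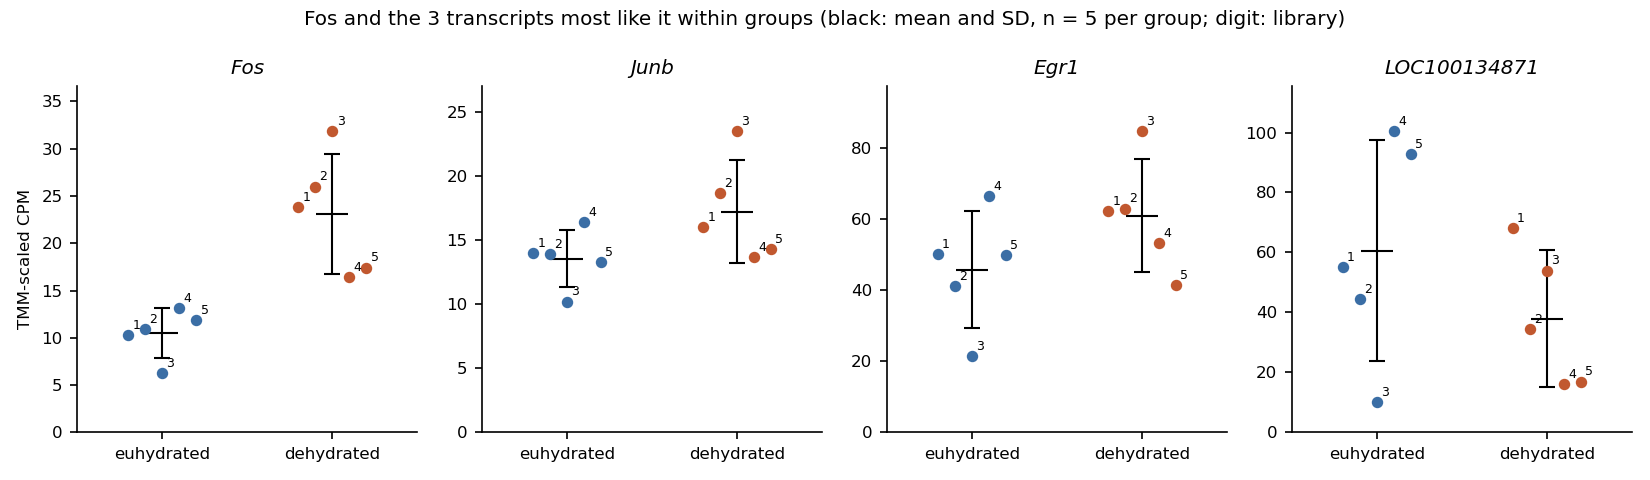
TMM-scaled CPM (y axis, from 0) of Fos, Junb, Egr1 and the beta globin gene LOC100134871 in the 5 euhydrated (blue) and 5 dehydrated (orange) libraries, with 1 numbered point per library and black bars for the mean and SD. Euhydrated library 3 is the lowest and library 4 the highest euhydrated point in each panel, while the globin gene alone has the lower dehydrated mean.

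Markers of blood were lower in dehydrated libraries, without passing adjustment. The mean log2 CPM of 7 erythrocyte markers was 5.63 in euhydrated and 4.79 in dehydrated libraries, a difference of -0.84 (exact two-sided permutation p = 0.0397, adjusted p = 0.132 over 10 marker lists), and their summed level was 1027 to 2058 and 590 to 1428 CPM. Of the 7, Slc4a1 alone fell, and its call was lost in 8 of the 20 alternatives that gave it a value. With the erythrocyte level as a covariate, the log2 fold change of Fos was 1.54 ± 0.24 (SE; edgeR adjusted p = 0.00870). The mean of the 8 magnocellular markers was higher by 0.54 in dehydrated libraries (exact permutation p = 0.00794, the smallest that 5 against 5 allows; adjusted p = 0.0794), and 3 of the 8 rose, Caprin2 (log2 fold change 1.81), Scg2 (0.97) and Pcsk1 (0.76). The other 5 did not pass, and those that mark the lineage of the neurones had log2 fold changes of 0.092 for Sim1, 0.072 for Otp and -0.046 for Pou3f2. Neutrophil and lymphocyte markers were lower by 0.34 (-0.34; exact permutation p = 0.0238, adjusted p = 0.119). No other list had an exact permutation p under 0.0952, and the part of any of these cells in the changes of the subunits was not tested.

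Around the subunits, 6 lists of related genes were read from the same test. Their counts are read beside the 12.7% of all genes that were called. The lists were chosen with earlier results of these data known, so a share above that is a description only. Among leucine zipper partners and competitors 4 of 16 tested rose and 0 fell (25% called), with a median log2 fold change of 0.036 beside -0.0058 for all genes. Atf5 and Atf4, stress-response factors, had log2 rises of 0.63 and 0.52 (edgeR adjusted p = 1.19e-06 and 1.26e-07). Ddit3, which encodes the stress-induced factor CHOP, rose by 0.28 (0.00241) and Nfe2l1, a partner of small Maf proteins, by 0.16 (0.00139; 0.0599 with the erythrocyte covariate). Atf2 and Jdp2, which pair directly with Jun proteins, had log2 fold changes of -0.0049 and -0.071 and did not pass (edgeR adjusted p = 0.951 and 0.624); both were named after their values were seen.

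Of the kinases that act on AP-1, 2 of 22 tested rose and 2 fell (18.2% called, beside 12.7% of all genes), with a median log2 fold change of -0.0029. Rps6ka3, an ERK-activated kinase that phosphorylates FOS, rose by 0.24 (edgeR adjusted p = 0.0181) and Map2k4, which activates JNK, by 0.18 (0.0274). Map2k6, which activates p38, had a log2 fold change of -0.24 (0.0185) and Rps6ka5 of -0.17 (0.0369). With the erythrocyte covariate none of the 4 passed, and the calls of Map2k4 and Rps6ka5 were lost in 9 and 12 of 21 alternatives.

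Of 12 tested factors that act on the Fos and Jun promoters, 4 rose and 1 fell (41.7% called, beside 12.7% of all genes), with a median log2 fold change of 0.013. Crem, which makes activators and repressors at the CRE, rose from 12.5 to 18.3 CPM (log2 fold change 0.55 ± 0.07, SE; edgeR adjusted p = 0.000122). The groups did not overlap, at 10.7 to 13.7 and 16.4 to 19.3 CPM. The ternary complex factors, which bind beside serum response factor, were split: Elk3 rose by 0.27 (0.0012), Elk4 rose by 0.19 (0.00553), and Elk1 fell by 0.17 (0.0199). The call of Elk1 was lost in 3 of 21 alternatives, the erythrocyte and oligodendrocyte covariates and without euhydrated library 4. Stat3 was the fourth that rose, and its call was lost in 16 of the 21.

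Feedback genes, whose products switch off the kinases or degrade the transcripts, gave 4 that rose and 0 that fell of 17 tested (23.5% called; median log2 fold change 0.081). Dusp4 and Dusp6, phosphatases of MAP kinases, had log2 rises of 0.45 and 0.56 (edgeR adjusted p = 0.000572 and 0.0196). The call of Dusp6 was lost with the erythrocyte covariate (0.0675). Zfp36, which encodes tristetraprolin, a protein that destabilises AU-rich transcripts, rose by 0.47 (0.00158). Dusp1, itself an immediate early gene, stood at 14.5, 16.6, 12.6, 16.4 and 15.7 CPM in euhydrated and 24.6, 30.8, 42.9, 19.3 and 19.4 CPM in dehydrated libraries 1 to 5. Its groups did not overlap, and as for Fos dehydrated library 3 was highest and libraries 4 and 5 lowest. Its log2 fold change was 0.86 ± 0.23 (SE; edgeR adjusted p = 0.0438), and the call was lost in 15 of 21 alternatives.

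Genes often described with AP-1 elements gave 6 that rose and 1 that fell of 19 tested (36.8% called), with a median log2 fold change of 0.13. Plaur, the urokinase receptor, had the largest change of that list. It stood at 1.01, 0.680, 1.39, 0.837 and 1.01 CPM in euhydrated and 6.74, 4.48, 8.02, 7.21 and 5.64 CPM in dehydrated libraries 1 to 5. The gap between the groups was wide, as for Fosl1, and the rise was 6.46-fold (log2 fold change 2.69 ± 0.19, SE; edgeR adjusted p = 3.49e-07). Plaur had only 19 to 40 counts per euhydrated library, which limits the precision of its fold. Th, for tyrosine hydroxylase, Mmp9, a matrix metalloproteinase, and Pdyn, for prodynorphin, had log2 rises of 1.65, 1.54 and 1.03 (edgeR adjusted p = 0.00612, 0.00186 and 0.000261). The groups of Mmp9 overlapped, at 15 to 40 counts in euhydrated and 36 to 87 in dehydrated libraries. Those of Th and Pdyn did not, though Th stood at 165 CPM in dehydrated library 2 and at 78.1 to 101 CPM in the other dehydrated libraries. Hmox1 also rose, and Ccnd1 fell, though not with the erythrocyte or the oligodendrocyte covariate. Whether AP-1 acts on any of these genes in the SON was not measured.

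Of the other immediate early genes, 3 of 22 tested rose and 1 fell (18.2% called, beside 12.7% of all genes), with a median log2 fold change of 0.084. Nr4a1, an orphan nuclear receptor, stood at 15.1, 10.1, 10.0, 21.8 and 18.0 CPM in euhydrated and 37.3, 38.5, 42.5, 27.4 and 28.1 CPM in dehydrated libraries 1 to 5. Its size of rise was close to that of Fos, at 2.32-fold (log2 fold change 1.22 ± 0.24, SE; edgeR adjusted p = 0.0132). Like that of Fos, its call was lost in 1 of the 21 alternatives, the block by column number. Csrnp1 rose by 0.59 (0.019) and Ier2 by 0.56 (0.00643), while Ier5 fell by 0.26 (0.0426). The call of Ier5 was lost in 9 of 21 alternatives and that of Csrnp1 in 3. The 18 that did not pass, among them Egr1, Arc and Npas4, had log2 fold changes from -0.66 to 0.94 (edgeR adjusted p from 0.0968 to 0.964).

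**Figure D5:**
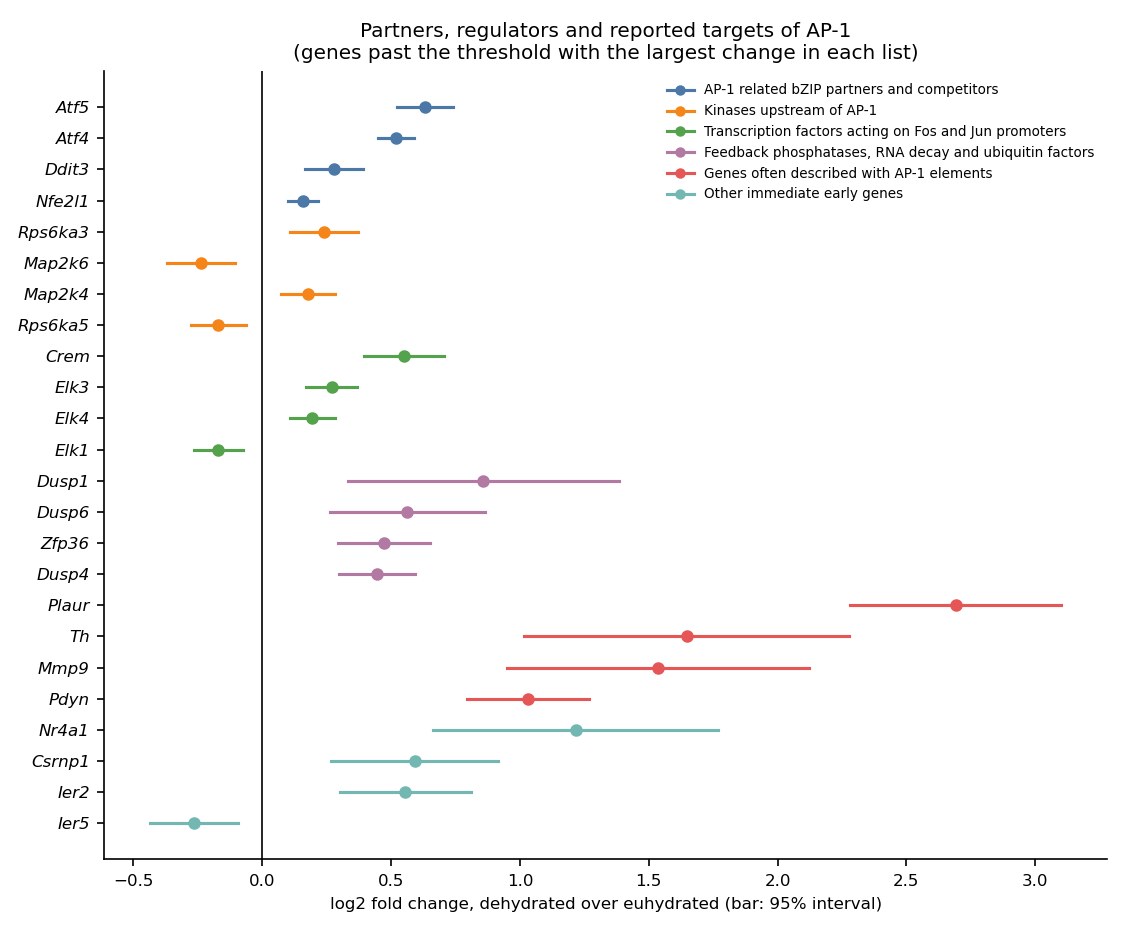
Log2 fold change (dehydrated over euhydrated, x axis) with its 95% interval from edgeR for the named genes of the 6 related lists, coloured by list. Plaur at 2.69, Th at 1.65, Mmp9 at 1.54, Nr4a1 at 1.22 and Pdyn at 1.03 lie far to the right, while the named kinases lie within 0.24 of 0.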

How the data were processed

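RNA from 10 SON samples was read from the authors' deposited raw counts per Ensembl gene. The submitters' processing notes name STAR, featureCounts and DESeq2 1.28.1, beside CASAVA and FastQC. Build, annotation and strand setting are not given in the sources used, so overlapping genes cannot be told apart. The authors' deposited table also gives log2 fold changes with their p-values, a Wald score and normalised counts per library (a signal), of which 100% equalled count over size factor within 1% or 0.1; its fold changes are quoted only where that table is named. Symbols came from it, and 407 identifiers had none. All columns of dehydrated libraries and euhydrated 1 and 2 were tied to samples by name; the other 3 euhydrated columns were tied to the group only. Libraries carry the number in their column. No library pair within a group agreed within sampling noise.

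Genes were kept by filterByExpr and tested with edgeR 4.0.16 (glmQLFit and glmQLFTest, robust, TMM factors) in R 4.3.3, with no covariate and Benjamini-Hochberg adjustment. The code was tested on simulated data. Log2 CPM used a prior count of 2. The SE is the log2 fold change over the root of F. Marker lists were compared by an exact permutation test over 252 labellings. The text names all subunits, up to 4 called members of each related list with a mean of at least 1 CPM and the largest changes, and the 3 genes most like Fos, Fosl1 and Maff. Members, lists and rules were chosen with earlier results of these data known. Mrtfb was not matched, and 4 partners, 3 kinases, 1 feedback gene and 3 AP-1-element genes fell under the filter. The 21 alternatives were other scalings, 2 other filters, DESeq2 1.42.0, limma-voom (limma 3.58.1), replicate blocks, marker covariates and each library left out. Promoter windows were matched by symbol to RefSeq (GRCr8); some genes have several. 1 gene of the AP-1-element list is not reported here by name.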

Additional observations from a re-analysis of the deposited data

How the results depend on the processing

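Of 34 named genes past the threshold, 17 stayed past it in all 21 alternatives, Fosl1, Fosl2 and Maff among them (edgeR or DESeq2 adjusted p at most 5.59e-06, 0.00132 and 0.000548). With library totals and no TMM factors, all genes had a median of -0.033 on the log2 scale, and this turned the split from 1192 higher and 750 lower to 904 and 1173, with the same 5 subunits called. The erythrocyte covariate left 784 genes (583 higher, 201 lower), 17 of 28 members of the related lists (17 higher, 0 lower) and 4 subunits, without Jund; since that level itself differed between the groups, the covariate carries part of the group difference. With each library left out, 1494 to 1756 genes, 5 to 6 subunits and 23 to 27 related genes passed. The share of Fosl1 in the Fos counts then differed by 13.6 to 14.4 percentage points. Without dehydrated 1, 2 marker lists passed (magnocellular 0.58 and neutrophil and lymphocyte -0.40, exact permutation adjusted p = 0.0397 for both) and 0 in the other settings. The log2 fold change of Atf3 ran from -0.20 to 0.035 with a library left out, and turned above 0 without euhydrated 1 (0.028), dehydrated 1 (0.035) or dehydrated 4 (0.029), with no call in any of them; the cause was not tested. Counts of 13 to 34 per euhydrated library limit the precision of the fold of Fosl1.

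The replicate numbers were not taken to pair the libraries: same-numbered libraries correlated in their deviations at -0.068, 0.14, 0.016, 0.038 and -0.016, and the labels tie numbers to columns in both groups for numbers 1 and 2 only. A replicate block with numbers 1 and 2 as levels left 1861 genes and 5 subunits; a block by column number gave 1956 genes and 4 subunits, without Fos (log2 fold change 1.13 ± 0.33, SE; edgeR adjusted p = 0.118) and with 27 related genes, without Nr4a1 (0.0995).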
